A study of Mus musculus with 24 samples.

Results

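Bone morphogenetic protein (BMP) signalling and the Id genes were followed in mouse cortical astrocyte lines that lacked p53 or carried a p53 missense mutant. The 10 genes were chosen by name for their parts in the pathway, with earlier results of these data known. They are the ligand genes Bmp2 and Bmp4, the receptor genes Bmpr1a and Bmpr2, the secreted antagonist Grem1, the inhibitory SMAD Smad6, and Id1, Id2, Id3, and Id4. Of these 10 genes, 9 were among the 14427 genes of the deposited counts, and all 9 passed the filter on low counts. Bmp2 was not analysed here.

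Polyadenylated RNA was sequenced in 24 libraries from 8 lines, with 3 replicates per line. The lines were p53 KO, p53R172H, p53Y202C, and p53Y217C, each as a male and as a female line. All 8 came from Trp53 f/- astrocytes of postnatal day 1 cortex on a C57BL/6 background, and in all of them a lentiviral Cre-IRES-Puro removed the floxed allele under puromycin selection. The mutant lines, whose genotype the labels give as overexpression, also received a retrovirus carrying mutant p53 with IRES-eGFP and were sorted for GFP. The p53 KO lines were not described as receiving an empty retrovirus, so mutation and the retrovirus with its sort cannot be told apart. Each sex was 1 primary culture pooled from several pups, so sex and culture cannot be told apart either. The cells were at passages 10 to 15, and replicates were separate thaws and platings of a line. The p-values therefore measure the spread within a line, not between animals.

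Total counts ranged from 52787288 to 136503809 per library. Levels are given as CPM, counts scaled by library total to a common sum, after TMM normalization. Trp53 itself was at 50.9 ± 2.75 CPM in male p53 KO and 48.9 ± 2.72 CPM in female p53 KO (SD, n = 3 each), and at 593 CPM or more in every mutant line, as labelled. Its level differed among the mutant lines. Male p53Y202C was at 2324 ± 104 CPM against 593 ± 17.95 CPM in female p53Y202C, and male p53Y217C was at 1215 ± 29.5 CPM against 3709 ± 162 CPM in female p53Y217C (SD, n = 3 each). Every comparison of these lines below therefore also compared different Trp53 levels, and their part in the results was not tested.

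The astrocyte label was only partly borne out by marker genes. Gfap, the astrocyte intermediate filament, was at 0.257 CPM or less in 7 lines and at 6.93 CPM in male p53Y217C. Aqp4, the astrocyte water channel, was under 2 CPM in the same 7 lines and at 8.06 CPM in male p53Y217C. Gja1 and Sox9 were present throughout, at 81.0 CPM to 221 CPM and 80.0 CPM to 183 CPM. Of 12 astrocyte markers listed, 11 were tested, and their summed mean level ran from 254 CPM in male p53Y202C to 717 CPM in female p53R172H. All 8 fibroblast or meningeal markers were tested, and they summed to between 18453 CPM in male p53Y202C and 57945 CPM in female p53R172H, chiefly collagen I and fibronectin. Of 9 endothelial and mural markers 7 were tested, summing to between 2483 CPM and 3779 CPM, of which Acta2, the smooth-muscle actin, held at least 2235 CPM in every line. The summed means of the other lists were lower, at 17.5 CPM to 108 CPM for microglia (2 of 8 tested), 7.94 CPM to 174 CPM for the oligodendrocyte lineage (3 of 7 tested), and 81.2 CPM to 154 CPM for neurons (4 of 6 tested). Tmem119 made up most of the microglia sum, at 16.4 CPM to 107 CPM, with Csf1r at 2.93 CPM or less. Pdgfra made up most of the highest oligodendrocyte-lineage sum, at 165 CPM in female p53R172H. In bulk RNA, fewer cells of a type and less RNA per cell cannot be told apart.

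**Figure D1:**
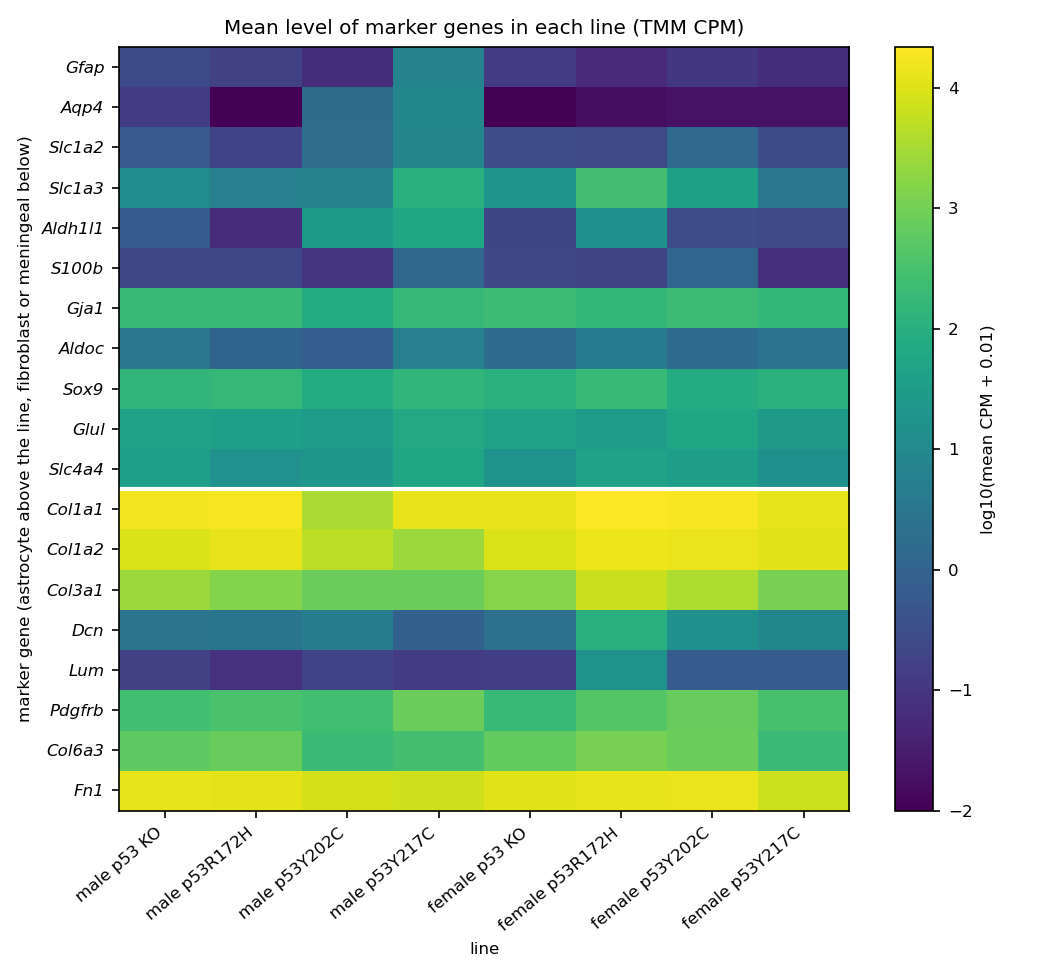
Heat map of the mean level of 11 astrocyte markers (above the white line) and 8 fibroblast or meningeal markers (below it) in the 8 lines, as log10 of the mean CPM plus 0.01 over 3 replicates. Gfap and Aqp4 reach 6.93 and 8.06 CPM in male p53Y217C and stay below 2 CPM in the other 7 lines, while Col1a1, Col1a2, and Fn1 are among the brightest rows in all 8.

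BMP ligands are secreted dimers that bring together type I receptors such as Bmpr1a and type II receptors such as Bmpr2. The receptors phosphorylate SMAD1, SMAD5, and SMAD9, which join SMAD4 and enter the nucleus. Gremlin and noggin bind the ligands outside the cell, and Smad6 is induced by the pathway and restrains it. The Id genes are classic direct targets. Id proteins carry a helix-loop-helix without a DNA-binding region, so they hold E proteins away from DNA and oppose differentiation factors. In the forebrain, BMP signalling favours the astrocyte over the neuronal fate, and Id genes are known for keeping neural progenitors and glioma cells undifferentiated.

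The 4 genes whose line means spanned the widest range were Grem1 (92.5-fold between the highest and the lowest line), Id4 (49.8-fold), Id2 (16.1-fold), and Bmp4 (13.4-fold). The remaining 5 spanned 6.46-fold for Id1, 3.37-fold for Id3, 1.91-fold for Smad6, 1.86-fold for Bmpr1a, and 1.55-fold for Bmpr2. On the log2 scale the median range of the 9 genes was 2.69, against 1.02 for all 14427 genes. Because the genes were chosen with earlier results of these data known, this difference is a description and not a test. Id3 was the most abundant of the 9 per kilobase of exon in 7 lines, with 86.0 ± 1.79 CPM per kb in male p53 KO and 102 ± 4.87 CPM per kb in female p53 KO (SD, n = 3 each). In male p53Y202C its place was taken by Id1, at 48.3 ± 6.23 CPM per kb, and Grem1, at 46.6 ± 2.48 CPM per kb. Id4 was the lowest per kilobase in male p53 KO, at 0.661 ± 0.0416 CPM per kb, and Grem1 in female p53 KO, at 0.921 ± 0.115 CPM per kb.

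The sequence just before the RefSeq start site is shown for these 4 genes with the widest range, read 5′ to 3′ on the gene's strand. Each stretch ends at the base before the start, except for Id2, where printing stops after 89 bases because the next bases lie in an exon of another Id2 transcript. The Id2 stretch lies inside the Id2 gene as GENCODE M21 places it, downstream of the 5′ end of that gene. The stretches are at chr2:113758649-113758898 (minus strand) for Grem1, chr14:46390670-46390919 (minus) for Bmp4, chr12:25096254-25096342 (minus) for Id2, and chr13:48260866-48261115 (plus) for Id4, on GRCm38.p6. Capitals mark 2 motifs that the SMADs of this pathway are known to bind, GGCGCC and CAGAC, searched on both strands with no overlap between them.
Grem1: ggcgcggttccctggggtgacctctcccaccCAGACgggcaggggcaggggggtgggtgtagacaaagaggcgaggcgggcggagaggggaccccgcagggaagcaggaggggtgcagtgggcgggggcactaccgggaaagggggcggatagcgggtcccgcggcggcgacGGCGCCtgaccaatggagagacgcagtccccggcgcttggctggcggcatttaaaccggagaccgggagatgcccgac
Bmp4: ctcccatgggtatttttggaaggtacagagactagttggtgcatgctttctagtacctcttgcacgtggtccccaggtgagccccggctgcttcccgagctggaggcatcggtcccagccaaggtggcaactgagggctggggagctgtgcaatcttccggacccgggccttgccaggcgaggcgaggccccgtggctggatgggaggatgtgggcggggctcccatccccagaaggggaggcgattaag
Id2: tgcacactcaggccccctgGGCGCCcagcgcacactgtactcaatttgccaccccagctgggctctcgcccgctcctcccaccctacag
Id4: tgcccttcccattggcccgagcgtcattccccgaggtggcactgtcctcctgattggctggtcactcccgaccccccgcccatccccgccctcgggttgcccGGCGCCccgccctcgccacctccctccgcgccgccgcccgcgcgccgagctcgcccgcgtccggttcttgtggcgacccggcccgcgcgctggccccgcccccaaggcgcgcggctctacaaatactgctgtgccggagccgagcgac
Over the full 250 bases, GGCGCC occurred 1 time before each of Grem1, Id2, Id4, Bmpr1a, and Bmpr2, and was absent before Bmp4, Id3, and Smad6. CAGAC or its reverse complement occurred 1 time before Grem1, 2 times before Id3, and in none of the other 6 windows. Of 32851 RefSeq promoter windows of the same length, 9.59% held GGCGCC and 42.2% held CAGAC on either strand. The windows of these genes were 62.8% to 78.8% G or C, and GGCGCC holds only these bases. The RefSeq windows were not matched for base content, so these shares do not show enrichment of a motif. Promoter windows were matched for 8 of the 10 genes, and those of Id1 and Bmp2 are named only. The genes themselves lie at chr2:113746164-113758646 (Grem1, minus strand), chr14:46383520-46390669 (Bmp4, minus), chr12:25093799-25097140 (Id2, minus), chr13:48261228-48266026 (Id4, plus), chr2:152736251-152737410 (Id1, plus), chr4:136143497-136145755 (Id3, plus), chr9:63953076-64022059 (Smad6, minus), chr14:34410734-34503341 (Bmpr1a, minus), and chr1:59763400-59879014 (Bmpr2, plus) in GENCODE M21 on GRCm38. The windows of Id2 and Bmpr1a lie inside these gene positions, so their motif counts do not describe sequence upstream of the whole gene. A match describes letters in the window and does not show binding.

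**Figure D2:**
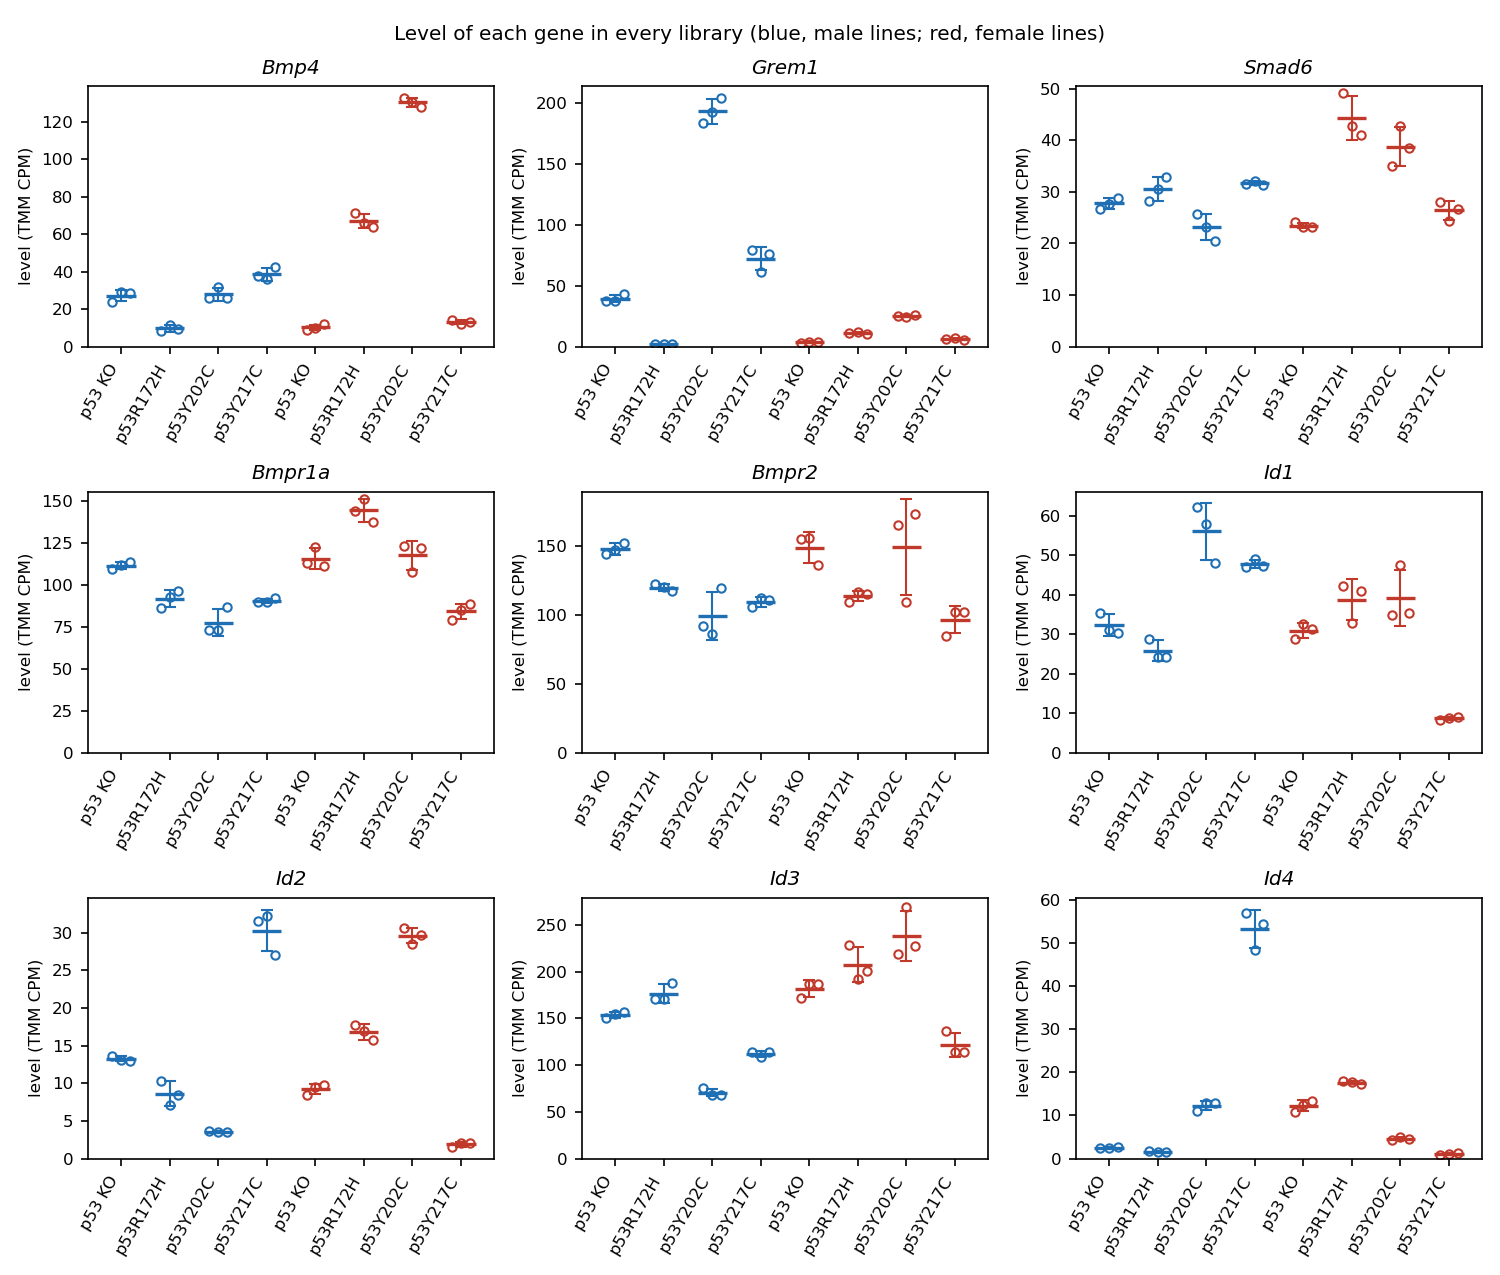
Level in TMM-normalized CPM of 9 genes in 24 libraries, 1 panel per gene, with each axis starting at 0. Open circles are libraries, horizontal bars are line means, and error bars are the SD of 3 replicates (blue, male lines; red, female lines); Bmp4 peaks in female p53Y202C, Grem1 in male p53Y202C, and Id4 in male p53Y217C.

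Bmp4, a ligand that drives astrocyte differentiation of neural progenitors, was at its highest in 2 female mutant lines. In the 3 replicates of female p53Y202C it was at 133, 131, and 128 CPM, and in those of female p53R172H at 71.2, 65.7, and 64.0 CPM. Female p53 KO was at 8.85, 9.97, and 11.8 CPM, and female p53Y217C at 14.3, 12.2, and 12.96 CPM, so these lines did not overlap. Against female p53 KO, the log2 fold change was 3.67 ± 0.12 in p53Y202C (SE, adjusted p = 1.08e-17), 2.71 ± 0.12 in p53R172H (adjusted p = 8.4e-16), and 0.36 ± 0.12 in p53Y217C (adjusted p = 0.0112). The last of these calls was lost without replicate 1 of female p53 KO (adjusted p = 0.0813) or of female p53Y217C (adjusted p = 0.0629). In the male culture the same gene moved differently. Male p53 KO was at 23.7, 29.2, and 28.7 CPM, male p53R172H at 8.06, 11.5, and 9.64 CPM, male p53Y202C at 26.0, 31.9, and 25.7 CPM, and male p53Y217C at 37.5, 35.9, and 42.4 CPM. Bmp4 fell in male p53R172H (log2 fold change -1.49 ± 0.12, adjusted p = 4.15e-10) and rose in male p53Y217C (0.50 ± 0.11, adjusted p = 0.000285). In male p53Y202C the log2 fold change was 0.03 ± 0.11 (adjusted p = 0.803). From the highest line to the lowest, neighbouring lines differed past the threshold except male p53Y202C and male p53 KO (adjusted p = 0.803), and female p53 KO and male p53R172H (adjusted p = 0.624).

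Other lists moved with Bmp4 in the female culture. The summed fibroblast or meningeal markers averaged 57945 CPM in female p53R172H and 52092 CPM in female p53Y202C, against 37087 CPM in female p53 KO and 32821 CPM in female p53Y217C. All 8 of these markers rose in both of the first 2 lines, where 34.4% and 34.3% of all genes rose. Pdgfra, a growth factor receptor of oligodendrocyte precursors and fibroblasts, was at 165 CPM and 144 CPM in the same 2 lines and at 3.09 CPM in female p53 KO. The part of these cells or markers in the Bmp4 result was not tested. Gm15222, an antisense gene within Bmp4 that shares no exon bases with it, was at 1.44 CPM or less in every line. The strand of counting is not stated in the sources used here.

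Grem1, whose protein captures BMP ligands outside the cell, had the widest range of the 9 genes. Male p53Y202C was at 183, 193, and 204 CPM, male p53Y217C at 79.1, 61.4, and 75.7 CPM, male p53 KO at 37.7, 37.5, and 42.9 CPM, and male p53R172H at 1.86, 2.40, and 2.01 CPM. No replicates of these 4 male lines overlapped. Grem1 rose in male p53Y202C (log2 fold change 2.30 ± 0.09, adjusted p = 2.53e-16) and male p53Y217C (0.87 ± 0.09, adjusted p = 9.22e-09), and fell in male p53R172H (-4.24 ± 0.12, adjusted p = 9.55e-19). The female lines were lower than male p53Y202C, male p53Y217C, and male p53 KO, and higher than male p53R172H. Female p53 KO was at 3.27, 4.11, and 4.09 CPM, female p53R172H at 11.1, 11.7, and 9.99 CPM, female p53Y202C at 24.8, 24.6, and 25.9 CPM, and female p53Y217C at 6.46, 6.82, and 5.56 CPM. In the female culture Grem1 rose in all 3 mutant lines, by 1.52 ± 0.11 in p53R172H (adjusted p = 8.62e-12), 2.72 ± 0.11 in p53Y202C (adjusted p = 2.41e-16), and 0.72 ± 0.11 in p53Y217C (adjusted p = 7.81e-06) on the log2 scale. Ordered by level, each line differed from the next past the threshold (largest adjusted p = 7.81e-06, between female p53Y217C and female p53 KO). In the female culture the largest rises of Grem1 were in p53Y202C and p53R172H, the lines in which all 8 fibroblast or meningeal markers rose (sums of 52092 CPM and 57945 CPM, against 37087 CPM in p53 KO). Of all genes, 34.3% and 34.4% rose in these 2 lines. In male p53Y202C, the line with the most Grem1, 5 of these 8 markers fell and 1 rose (35.4% and 37.6% of all genes). The sum of the markers was the lowest of the 8 lines, 18453 CPM. The part of these markers in the Grem1 result was not tested.

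The receptor genes moved by less. Bmpr1a, a type I receptor, was between 72.8 CPM and 151 CPM in all 24 libraries. It fell in the 3 male mutant lines, by 0.28 ± 0.07 in p53R172H (adjusted p = 0.00143), 0.53 ± 0.07 in p53Y202C (adjusted p = 1.44e-07), and 0.30 ± 0.07 in p53Y217C (adjusted p = 0.000279) on the log2 scale, and in female p53Y217C, by 0.46 ± 0.07 (adjusted p = 2.66e-06). It rose in female p53R172H by 0.32 ± 0.07 (adjusted p = 0.000138). In female p53Y202C the log2 fold change was 0.02 ± 0.07 (adjusted p = 0.754). Bmpr2, the type II receptor, was between 84.9 CPM and 173 CPM. It fell in 5 of the 6 mutant lines, by between 0.30 ± 0.12 in male p53R172H (adjusted p = 0.0464) and 0.63 ± 0.12 in female p53Y217C (adjusted p = 0.000111) on the log2 scale. The male p53R172H call was lost when any 1 of the 6 libraries compared was left out, with adjusted p between 0.0716 and 0.114. In female p53Y202C the replicates of Bmpr2 were far apart, at 165, 109, and 173 CPM against 155, 155, and 136 CPM in female p53 KO, and the log2 fold change was 0.00 ± 0.12 (adjusted p = 0.986). Neither receptor differed past the threshold between male and female p53 KO (adjusted p = 0.596 for Bmpr1a and 0.967 for Bmpr2). Stretches of the long Bmpr2 transcript match those of many other genes, Noa1 among them at 90.5% of 189 bases, and 290 exon bases of Bmpr1a are shared with the antisense gene Gm17110.

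Smad6, which blocks BMP receptor signalling from inside the cell and is itself induced by it, was between 20.5 CPM and 49.1 CPM in all 24 libraries. Female p53R172H was at 49.1, 42.7, and 41.0 CPM and female p53Y202C at 35.0, 42.7, and 38.5 CPM, above the 24.1, 23.1, and 23.1 CPM of female p53 KO. The log2 fold changes were 0.92 ± 0.08 (adjusted p = 6.68e-10) and 0.73 ± 0.08 (adjusted p = 4.58e-08). These are the same 2 lines in which Bmp4 had its largest rises. In the other lines the changes were smaller. Smad6 fell in male p53Y202C (-0.26 ± 0.08, adjusted p = 0.0068, lost at 0.0593 without replicate 3 of that line) and rose in male p53Y217C (0.19 ± 0.08, adjusted p = 0.0456). The latter call was lost without any 1 of 5 of its 6 libraries, all but replicate 3 of male p53 KO (adjusted p between 0.0768 and 0.131). In male p53R172H (0.14 ± 0.08, adjusted p = 0.187) and female p53Y217C (0.17 ± 0.08, adjusted p = 0.079, but 0.0403 without replicate 2 of that line) it did not pass.

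Id1, whose product restrains differentiation, was lowest in female p53Y217C. That line was at 8.25, 8.64, and 9.13 CPM, against 28.8, 32.7, and 31.3 CPM in female p53 KO, a log2 fold change of -1.83 ± 0.12 (adjusted p = 6.39e-12). In the male culture p53Y217C went the other way, at 47.1, 49.1, and 47.2 CPM against 35.4, 31.2, and 30.3 CPM in p53 KO (0.57 ± 0.11, adjusted p = 7.71e-05). Male p53Y202C was the highest line, at 62.2, 57.9, and 48.1 CPM (0.80 ± 0.11, adjusted p = 6.55e-07), although it did not differ past the threshold from male p53Y217C, the next in order (adjusted p = 0.0618). The other 3 calls were small and rested on single libraries. Id1 rose by 0.32 ± 0.11 in female p53R172H (adjusted p = 0.0117), but adjusted p was 0.0572 without replicate 1 of female p53 KO and 0.0671 without replicate 1 of female p53R172H. It rose by 0.34 ± 0.11 in female p53Y202C (adjusted p = 0.00851), which became 0.121 without replicate 2 of that line. In male p53R172H it fell by 0.32 ± 0.11 (adjusted p = 0.0241), which became 0.118 without replicate 1 of male p53 KO, and 0.0944 and 0.0921 without replicates 2 and 3 of male p53R172H.

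Id2, an inhibitor of neuronal and oligodendrocyte differentiation factors, changed by more, and in opposite directions in the 2 cultures. Male p53Y217C was at 31.5, 32.2, and 27.1 CPM, male p53 KO at 13.6, 13.1, and 12.99 CPM, male p53R172H at 10.3, 7.11, and 8.43 CPM, and male p53Y202C at 3.72, 3.48, and 3.52 CPM. The female order was different. Female p53Y202C was at 30.6, 28.5, and 29.7 CPM, female p53R172H at 17.8, 17.0, and 15.7 CPM, female p53 KO at 8.43, 9.49, and 9.72 CPM, and female p53Y217C at 1.504, 2.06, and 2.07 CPM. Within each culture none of the 4 lines overlapped another. Id2 rose in male p53Y217C (log2 fold change 1.19 ± 0.10, adjusted p = 3.57e-10), female p53Y202C (1.68 ± 0.11, adjusted p = 1.69e-12), and female p53R172H (0.87 ± 0.11, adjusted p = 1.07e-07). It fell in male p53R172H (-0.61 ± 0.11, adjusted p = 6.49e-05), male p53Y202C (-1.89 ± 0.11, adjusted p = 3.7e-13), and female p53Y217C (-2.30 ± 0.12, adjusted p = 2.31e-13). The highest lines, male p53Y217C and female p53Y202C, did not differ past the threshold (adjusted p = 0.796). A transcript of Gm6175, not analysed here, matches Id2 at 91.8% of 380 bases, so reads shared between them could not be followed.

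Id3, a target of the pathway with broad expression, was the steadiest of the Id genes. It fell in male p53Y202C, from 151, 154, and 157 CPM in male p53 KO to 75.1, 68.4, and 68.5 CPM (log2 fold change -1.12 ± 0.08, adjusted p = 4.76e-12). It also fell in male p53Y217C (-0.46 ± 0.08, adjusted p = 1.14e-05) and female p53Y217C (-0.58 ± 0.08, adjusted p = 8.52e-07). In female p53Y202C it rose, from 171.9, 187, and 187 CPM in female p53 KO to 219, 269, and 227 CPM (0.39 ± 0.08, adjusted p = 9.59e-05). The p53R172H changes were the same size in the male and the female culture, 0.19 ± 0.08 in each (adjusted p = 0.0467 and 0.031). Both were fragile. The male call was lost without any 1 of its 6 libraries (adjusted p between 0.0504 and 0.195), and the female call without replicate 1 of female p53 KO (adjusted p = 0.129) or of female p53R172H (adjusted p = 0.221).

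Id4, which is highest in immature astrocytes and neural stem cells among brain cells, showed the largest rise and the second largest fall of the 9 genes. Male p53Y217C was at 56.9, 48.4, and 54.4 CPM against 2.56, 2.38, and 2.70 CPM in male p53 KO, 20.9-fold higher (log2 fold change 4.39 ± 0.11, adjusted p = 2.61e-20). Female p53Y217C was at 0.822, 1.14, and 1.24 CPM against 10.9, 12.4, and 13.5 CPM in female p53 KO, a log2 fold change of -3.53 ± 0.12 (adjusted p = 7.36e-17). The same mutation was thus accompanied by a rise in the male and a fall in the female culture, with no overlap of replicates. Male p53Y202C was at 11.1, 12.9, and 12.9 CPM (2.27 ± 0.11, adjusted p = 2.89e-15) and female p53Y202C at 4.37, 4.93, and 4.58 CPM (-1.40 ± 0.10, adjusted p = 2.72e-11). Male p53R172H was at 1.72, 1.42, and 1.55 CPM (-0.69 ± 0.12, adjusted p = 6.9e-05) and female p53R172H at 17.9, 17.8, and 17.2 CPM (0.53 ± 0.10, adjusted p = 3.33e-05). Male and female p53 KO themselves differed, with Id4 lower in the male line by 2.27 ± 0.11 on the log2 scale (adjusted p = 3.35e-14). In the order of levels the only neighbours that did not differ past the threshold were male p53Y202C and female p53 KO (adjusted p = 0.984).

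Astrocyte markers and Id4 moved the same way in some lines and not in others. In male p53Y217C, 9 of the 11 astrocyte markers tested rose and none fell, where 34.9% of all genes rose and 35.6% fell. The 11 summed to 632 CPM (616 to 657 in the replicates) against 437 CPM in male p53 KO (422 to 449). No marker was below 1 CPM in that mutant line, against 5 in male p53 KO. Slc1a3, a glutamate transporter of astrocytes and radial glia, was at 106 CPM against 12.2 CPM. The sum was higher still in female p53R172H, 717 CPM (692 to 730) with 4 markers below 1 CPM, where Id4 was at 17.6 ± 0.35 CPM. In female p53Y217C the sum was 310 CPM (288 to 325), against 417 CPM in female p53 KO (408 to 434). In male p53Y202C, where Id4 rose, 8 of the 11 astrocyte markers fell and 3 rose (35.4% and 37.6% of all genes), and the sum was 254 CPM (248 to 263). In female p53Y202C, where Id4 fell, 5 rose and 1 fell (34.3% and 34.3% of all genes), and the sum was 437 CPM (404 to 456). The fibroblast or meningeal markers also changed in male p53Y217C, where 6 of 8 fell and 1 rose (35.6% and 34.9% of all genes). Their sum was 25536 CPM against 43787 CPM in male p53 KO. The part of either marker list in the Id4 result was not tested. The antisense gene A330033J07Rik, which shares 82 exon bases with Id4, was at 1.64 ± 0.07 CPM in male p53Y217C and at 0.361 CPM or less elsewhere (SD, n = 3).

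Counted over the 9 genes, 8 passed the test in male p53R172H (1 higher, 7 lower), where 40.7% of all genes did (20.2% higher and 20.5% lower). That count was 6 or 5 when any 1 of its 6 libraries was left out, and 5 without replicate 1 of male p53 KO or replicate 2 or 3 of male p53R172H. In male p53Y202C 8 passed (3 higher, 5 lower), against 73.0% of all genes (37.6% and 35.4%), and in male p53Y217C 9 passed (6 higher, 3 lower), against 70.5% (34.9% and 35.6%). In female p53R172H 9 passed (8 higher, 1 lower), against 69.7% of all genes (34.4% higher and 35.3% lower). In female p53Y202C 7 passed (6 higher, 1 lower), against 68.6% (34.3% and 34.3%), and in female p53Y217C 8 passed (2 higher, 6 lower), against 56.7% (28% and 28.7%). With most genes called in 5 of these 6 comparisons, the number of calls among 9 genes says little, and the directions and sizes carry the description. The median log2 fold change of the 9 genes ran from -0.58 in female p53Y217C to 0.53 in female p53R172H, while that of all genes was between -0.01 and 0.01. All 4 Id genes fell in female p53Y217C, with a median of -2.07, and all 4 rose in female p53R172H, with a median of 0.43. The 3 comparisons within a culture share their p53 KO libraries and are given side by side, not as independent of each other.

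**Figure D3:**
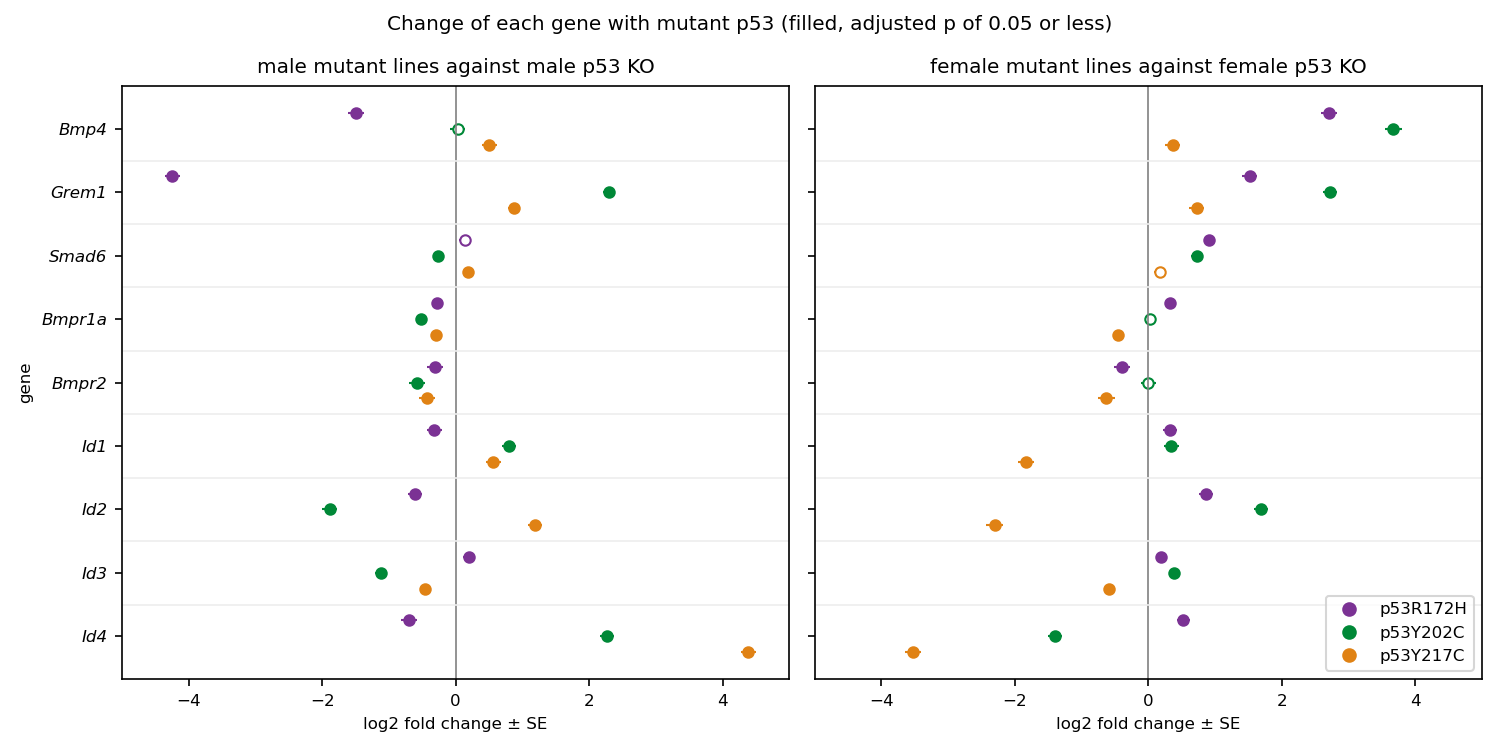
Log2 fold change (horizontal axis, with SE bars) of the 9 genes in each mutant line against p53 KO of the same culture, male lines on the left and female lines on the right, coloured by mutation. Filled points passed the 0.05 threshold; Id4 in p53Y217C lies at 4.39 on the left and at -3.53 on the right.

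Whether a mutation had the same effect in both cultures was tested by the difference between the male and the female log2 fold change. For p53R172H, 7 of the 9 genes differed, all in the direction of a lower male effect, where 58.0% of all genes differed (29.7% higher and 28.3% lower). The largest differences were in Grem1 (-5.76 ± 0.16, adjusted p = 3.31e-19) and Bmp4 (-4.20 ± 0.17, adjusted p = 2.88e-16), which fell in males and rose in females. Bmpr2 (0.09 ± 0.17, adjusted p = 0.684) and Id3 (0.00 ± 0.11, adjusted p = 0.981) did not differ past the threshold. For p53Y202C all 9 differed (2 higher and 7 lower in the male), against 68.0% of all genes (34.5% and 33.5%), and Id4 (3.67 ± 0.15, adjusted p = 2.67e-16) went the opposite way to Id2 (-3.57 ± 0.16, adjusted p = 1.16e-15) and Id3 (-1.51 ± 0.11, adjusted p = 1.34e-11). The p53Y202C difference in Grem1 was small beside the rise in both cultures (-0.42 ± 0.14, adjusted p = 0.00943) and was lost without replicate 1 of female p53 KO (adjusted p = 0.0516). That in Id1 (0.45 ± 0.16, adjusted p = 0.0132) was lost without replicate 3 of female p53Y202C (adjusted p = 0.0658).

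For p53Y217C the pattern was narrower. Id4 (7.92 ± 0.16, adjusted p = 3.85e-21), Id2 (3.49 ± 0.16, adjusted p = 5.86e-15), and Id1 (2.40 ± 0.16, adjusted p = 6.31e-12) differed between the cultures, and 6 genes did not pass, against 54.8% of all genes that did (27.5% higher and 27.4% lower in the male). Those 6 had differences between 0.01 ± 0.12 for Smad6 (adjusted p = 0.933) and 0.19 ± 0.17 for Bmpr2 (adjusted p = 0.353). Bmp4, Grem1, Bmpr1a, Bmpr2, and Id3 each passed the test in the same direction in both cultures with this mutation. Between the p53 KO lines, 6 of the 9 genes differed (4 higher and 2 lower in the male line), where 31.1% of all genes did (17.2% and 13.8%). The male p53 KO line had 10.3-fold more Grem1 than the female one (log2 fold change 3.37 ± 0.11, adjusted p = 2.34e-17), 2.66-fold more Bmp4 (1.41 ± 0.12, adjusted p = 8.12e-10), and 1.44-fold more Id2 (0.52 ± 0.11, adjusted p = 0.000451). The differences in Smad6 (0.25 ± 0.08, adjusted p = 0.025) and Id3 (-0.24 ± 0.08, adjusted p = 0.0191) were lost without any 1 of 4 and any 1 of 3 libraries, all of them p53 KO libraries, with adjusted p up to 0.0981 and 0.068. Between the male and female lines of the same mutant, 8 of 9 genes differed for p53R172H, all of them lower in males (62.0% of all genes differed, 32.4% higher and 29.7% lower in males). For p53Y202C 9 differed, 3 higher and 6 lower (75.3%, 37.7% and 37.7%), and for p53Y217C 6 did, all higher in males (68.0%, 33.4% and 34.6%).

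**Figure D4:**
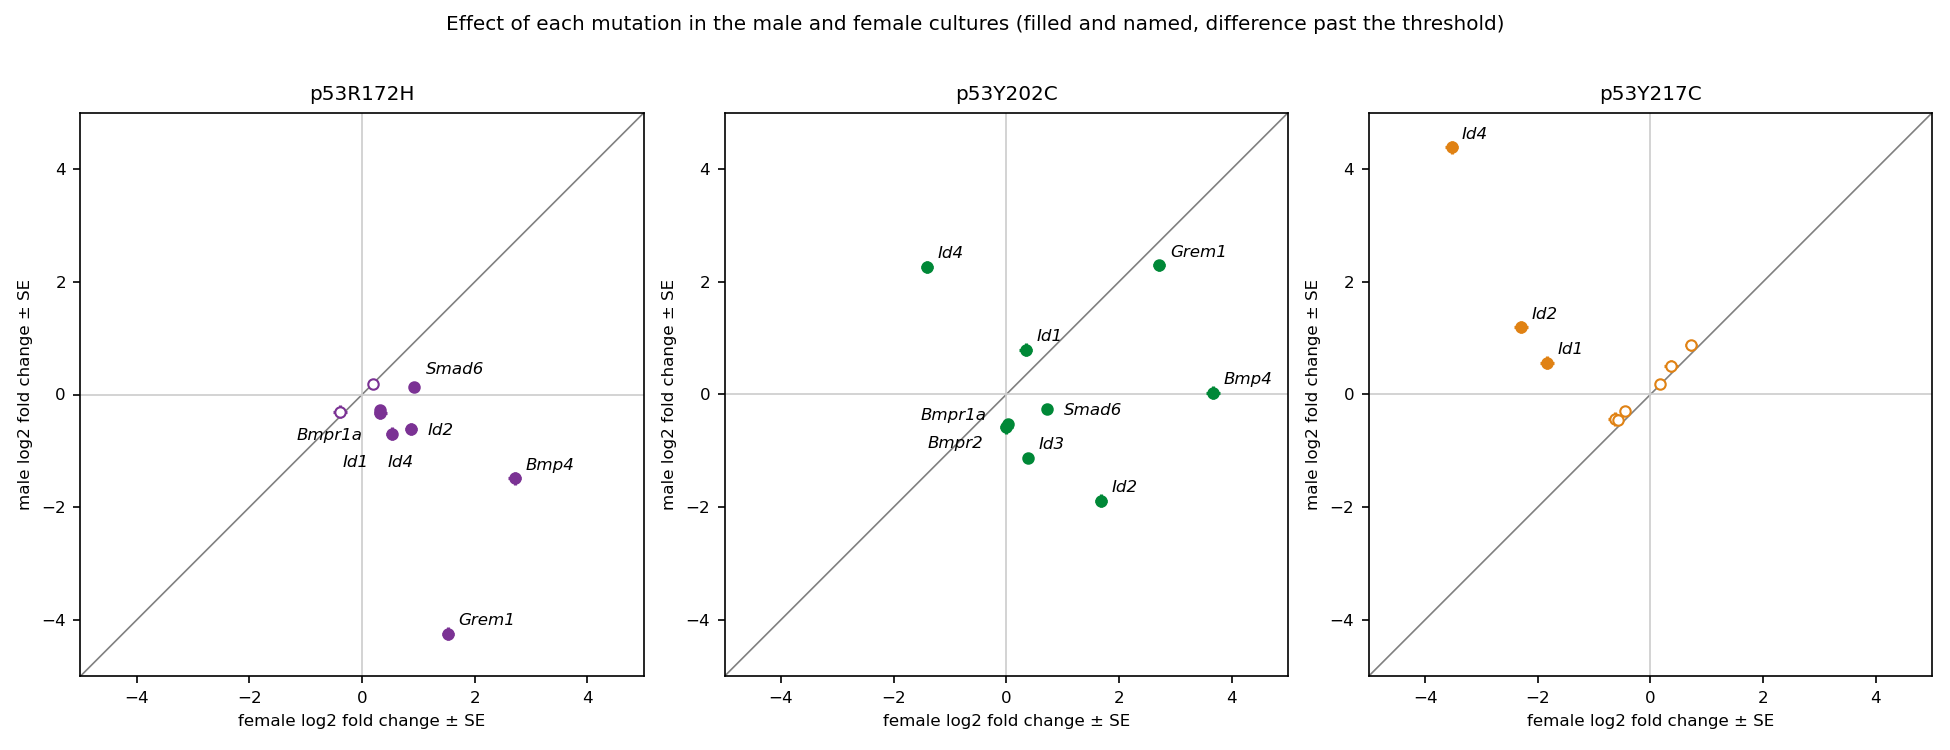
Log2 fold change against p53 KO in the female culture (horizontal axis) and in the male culture (vertical axis) for the 9 genes, 1 panel per mutation, with SE bars and the line of equal effects. Filled, named points differ between the cultures past the 0.05 threshold; 7 points are filled for p53R172H, 9 for p53Y202C, and 3 for p53Y217C.

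The rest of the pathway was read from lists of 62 other genes, of which 42 were tested. Over all lists, the numbers called higher and lower were 6 and 13 in male p53R172H, 18 and 15 in male p53Y202C, 12 and 23 in male p53Y217C, 17 and 17 in female p53R172H, 16 and 19 in female p53Y202C, and 12 and 19 in female p53Y217C. The shares called, 45.2%, 78.6%, 83.3%, 81.0%, 83.3%, and 73.8%, stood beside 40.7%, 73.0%, 70.5%, 69.7%, 68.6%, and 56.7% of all genes. The medians of the 42 genes lay between -0.22 and 0.02 on the log2 scale. The genes named below are the 2 of each list with the largest change among those past the threshold, and Bmp6.

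Among 3 other ligands tested of 11, Gdf6 and Gdf7 were low throughout. Bmp6, also tested, rose in male p53Y202C (log2 fold change 1.67 ± 0.08, adjusted p = 6.22e-15) and fell in male p53R172H (-0.68 ± 0.08, adjusted p = 6.58e-07). It did not pass in male p53Y217C (-0.09 ± 0.08, adjusted p = 0.316). In the female culture Bmp6 rose by 1.01 ± 0.08 in p53R172H (adjusted p = 1.87e-10), 1.22 ± 0.09 in p53Y202C (adjusted p = 1.07e-11), and 0.72 ± 0.09 in p53Y217C (adjusted p = 1.97e-07). Gdf6, a joint-forming BMP ligand, was at 0.713 ± 0.098 CPM in male p53 KO and rose to 3.57 ± 0.72 CPM in male p53Y202C (log2 fold change 2.33 ± 0.33, adjusted p = 8.34e-07). It fell to 0.0278 ± 0.0206 CPM in male p53R172H (-4.65 ± 0.56, adjusted p = 4.97e-07). Gdf7, a roof plate ligand, rose in male p53R172H from 0.618 ± 0.0713 CPM to 2.495 ± 0.32 CPM (2.005 ± 0.28, adjusted p = 5.18e-06). Of 8 other receptors and co-receptors tested, between 4 and 8 passed in each comparison, where 40.7% to 73.0% of all genes did. Acvrl1, a type I receptor of endothelial cells, fell in all 3 male mutant lines, most in p53Y217C (-2.64 ± 0.25, adjusted p = 1.92e-09), and in female p53Y217C (-1.97 ± 0.27, adjusted p = 1.68e-06), and rose in female p53R172H from 1.23 ± 0.10 CPM to 4.48 ± 0.14 CPM (1.86 ± 0.22, adjusted p = 9.84e-08). Bmpr1b, the second BMP type I receptor, fell in male p53Y217C from 13.5 ± 1.06 CPM to 3.33 ± 0.27 CPM (-2.02 ± 0.10, adjusted p = 4.11e-15). It fell by less in female p53Y202C (-1.04 ± 0.09, adjusted p = 4.96e-10), female p53R172H (-0.69 ± 0.09, adjusted p = 2.4e-07), and male p53R172H (-0.32 ± 0.09, adjusted p = 0.00537). Bmpr1b did not pass in male p53Y202C (adjusted p = 0.398) or female p53Y217C (adjusted p = 0.486).

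Of 7 other SMADs and their ubiquitin ligases, 7 fell in male p53Y217C, 6 in female p53R172H, and 6 in female p53Y217C, with none higher in these 3 lines, where 35.6%, 35.3%, and 28.7% of all genes fell. In male p53Y202C 3 rose and 3 fell, in female p53Y202C 2 rose and 4 fell, and in male p53R172H 1 fell and none rose. Of all genes, 35.4%, 34.3%, and 20.5% fell in these lines, and 37.6%, 34.3%, and 20.2% rose. Smad6, which is not in this list, rose in female p53R172H (0.92 ± 0.08, adjusted p = 6.68e-10). Its rise in male p53Y217C was small (0.19 ± 0.08, adjusted p = 0.0456) and was lost without any 1 of 5 of its 6 libraries. Smad1, a signal-carrying SMAD, was at 108 ± 5.33 CPM in female p53 KO and at 49.6 ± 0.50 CPM in female p53R172H (-1.12 ± 0.05, adjusted p = 5.03e-15) and 50.6 ± 4.04 CPM in female p53Y202C (-1.10 ± 0.05, adjusted p = 1.57e-14), the 2 lines with the most Bmp4. Smad9, its relative that is itself a BMP target, fell in male p53Y202C from 9.70 ± 1.08 CPM to 1.46 ± 0.17 CPM (-2.73 ± 0.12, adjusted p = 6.59e-16) and rose in female p53Y202C from 7.45 ± 0.91 CPM to 25.2 ± 1.66 CPM (1.76 ± 0.10, adjusted p = 4.32e-13). In those 2 lines Id2 and Id3 had the directions of Smad9, Id4 had the opposite direction in both, and Id1 rose in both. In the other lines the match was partial. Smad9 fell in female p53Y217C (-1.50 ± 0.11, adjusted p = 7.06e-11), where Id2 and Id3 fell. It fell in male p53Y217C (-1.52 ± 0.11, adjusted p = 8.86e-12), where Id2 rose and Id3 fell. In male p53R172H it fell (-0.54 ± 0.10, adjusted p = 0.000211), where Id2 fell and the fragile Id3 call was a rise. In female p53R172H Smad9 did not pass (adjusted p = 0.594), while Id2 rose and Id3 rose by a fragile call.

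Of 12 other antagonists tested, between 6 and 11 passed in each comparison, where 40.7% to 73.0% of all genes did. Nog, which encodes noggin, was at 0.502 ± 0.101 CPM in female p53 KO and rose to 5.38 ± 0.39 CPM in female p53R172H (3.41 ± 0.27, adjusted p = 2.47e-10) and 4.02 ± 0.35 CPM in female p53Y202C (2.99 ± 0.27, adjusted p = 2.66e-09). In male p53Y202C all 3 libraries were at 0, at least 5.95-fold lower than the 0.272 ± 0.0703 CPM of male p53 KO when 0 is set to 3 counts per library. Sostdc1, an antagonist of BMP and Wnt ligands, was at 8.60 ± 0.31 CPM in female p53R172H (adjusted p = 2.48e-13), with at most 1 count in any female p53 KO library. In female p53Y202C it was at 0.824 ± 0.195 CPM (adjusted p = 1.4e-09). Female p53R172H and p53Y202C thus had more Bmp4, more Grem1, and more Nog than female p53 KO.

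All 8 other BMP target genes listed were tested, and they did not move together. Msx2, a homeobox target of the pathway, fell in all 6 mutant lines, most in female p53R172H (from 15.3 ± 1.33 CPM to 1.42 ± 0.16 CPM, -3.43 ± 0.13, adjusted p = 4.35e-17) and male p53Y202C (from 18.1 ± 0.77 CPM to 1.75 ± 0.40 CPM, -3.40 ± 0.13, adjusted p = 4.72e-17). Dlx5, a skeletal and forebrain homeobox gene, rose in female p53Y202C to 2.26 ± 0.30 CPM (adjusted p = 3.96e-10), where female p53 KO had at most 4 counts in any library. It also rose in female p53R172H (1.52 ± 0.26 CPM, adjusted p = 2.18e-09), female p53Y217C (0.596 ± 0.055 CPM, adjusted p = 1.77e-06), and male p53Y217C (0.536 ± 0.091 CPM, adjusted p = 4.64e-06). Dlx5 did not pass in male p53R172H (adjusted p = 0.0808) or male p53Y202C (adjusted p = 0.435). The targets called higher and lower were 5 and 1 in female p53R172H, 5 and 2 in female p53Y202C, 4 and 3 in male p53Y217C, 3 and 4 in female p53Y217C, 2 and 5 in male p53Y202C, and 0 and 3 in male p53R172H. Of all genes, 20.2% to 37.6% were called higher and 20.5% to 35.6% lower in these comparisons. Of the E proteins that Id proteins bind, all 3 were tested. Tcf3 (E2A) fell in 5 mutant lines, by between 0.25 ± 0.06 in male p53Y217C (adjusted p = 0.000324) and 0.52 ± 0.06 in female p53R172H (adjusted p = 1.63e-08) on the log2 scale, and rose in male p53R172H (0.19 ± 0.06, adjusted p = 0.00797). Tcf4 rose in female p53R172H from 241 ± 5.61 CPM to 420 ± 17.9 CPM (0.80 ± 0.08, adjusted p = 7.59e-09). It rose by less in male p53Y217C (0.52 ± 0.08, adjusted p = 5.37e-06) and male p53Y202C (0.23 ± 0.08, adjusted p = 0.0155). Tcf4 did not pass in male p53R172H (adjusted p = 0.0935), female p53Y202C (adjusted p = 0.279), or female p53Y217C (adjusted p = 0.263). Among 7 neural basic helix-loop-helix factors Hes1 alone was tested, and it fell in female p53R172H from 78.4 ± 1.93 CPM to 22.9 ± 2.03 CPM (-1.77 ± 0.07, adjusted p = 9.91e-17). It fell by less in female p53Y217C (-1.04 ± 0.07, adjusted p = 6.23e-12), male p53R172H (-0.60 ± 0.07, adjusted p = 1.25e-07), and female p53Y202C (-0.29 ± 0.07, adjusted p = 0.000413). Hes1 rose in male p53Y202C (0.16 ± 0.07, adjusted p = 0.033) and did not pass in male p53Y217C (adjusted p = 0.226).

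**Figure D5:**
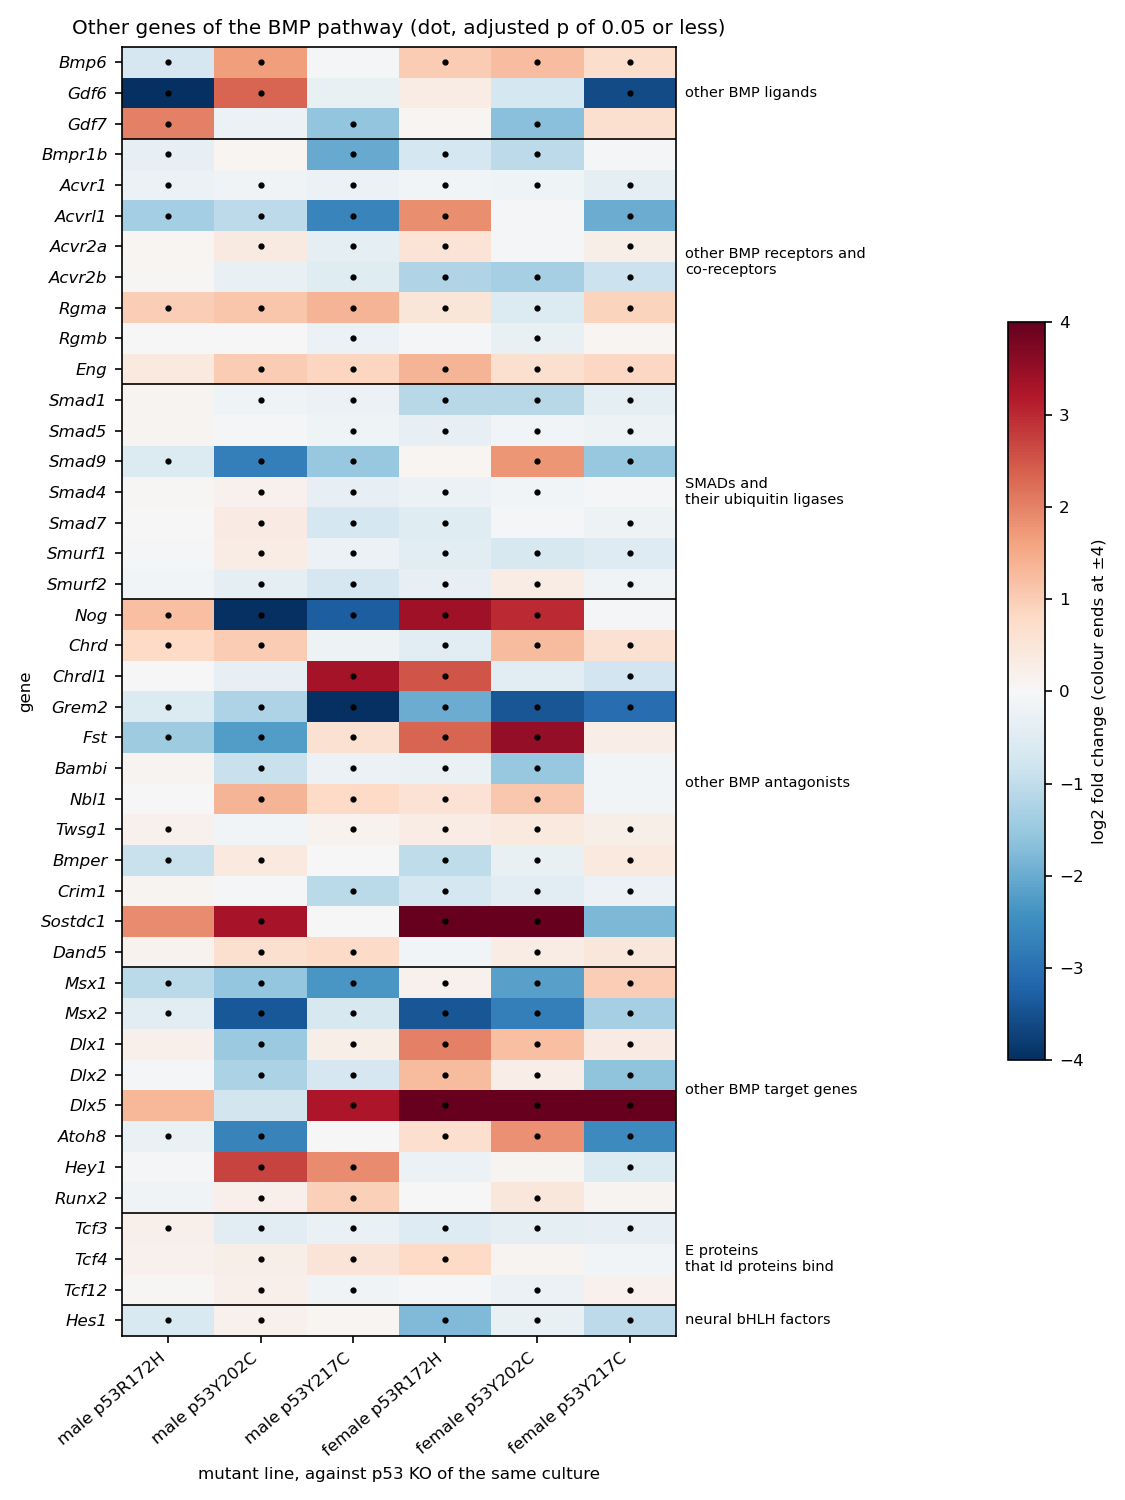
Heat map of the log2 fold change of 42 other BMP pathway genes (rows, grouped by list) in the 6 mutant lines against p53 KO of the same culture (columns); dots mark genes past the 0.05 threshold and colours end at 4 and -4. Msx2 is blue in all 6 columns, Nog is red in female p53R172H and p53Y202C, and Sostdc1 outside those 2 columns rests on few or no counts.

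The 9 genes were also compared by the pattern of log2 CPM over the 24 libraries, which come from 8 lines and share their normalization, so these correlations describe and do not test. The highest among the 36 pairs were between Bmpr1a and Id3 (r = 0.78), Id1 and Id4 (r = 0.73), and Bmp4 and Smad6 (r = 0.70), and the lowest was between Grem1 and Id3 (r = -0.61). Id3 and Id4 had r = -0.18, and Bmp4 had r = 0.62 with Id2 and 0.27 with Id3. Among 13333 other genes with a mean of at least 1 CPM, the 3 most like Bmp4 were Fbxo36 (r = 0.96), Ak1 (0.95), and Xdh (0.94). For Grem1 they were Aldh1b1, Crip2, and Sytl5 (r = 0.93, 0.93, and 0.92). For Bmpr1a they were Mtmr6, Dnajc3, and Trim30d (r = 0.97, 0.95, and 0.94), and for Bmpr2 Cep350, Zbtb37, and Elk4 (r = 0.95, 0.93, and 0.93). For Smad6 they were Tapbp, Tsc22d4, and Col27a1 (r = 0.96, 0.95, and 0.95). For Id1 they were Pde3b, Armc9, and Mff (r = 0.95, 0.94, and 0.94), for Id2 Mpp2, Ncstn, and Angel2 (r = 0.96, 0.94, and 0.93), for Id3 Cybc1, Dnpep, and Fbxw17 (r = 0.96, 0.96, and 0.95), and for Id4 Fam53b, Slc25a16, and Cxcl14 (r = 0.91 for each). None of the 9 genes was among the 3 most like another.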

How the data were processed

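Polyadenylated RNA from 24 libraries, 3 for each of 8 lines grouped by the sample labels, was analysed. The authors aligned reads with STAR 2.5.1a to an Ensembl primary assembly and counted them per gene with featureCounts, and the deposited values are raw read counts without normalization. Total counts ranged from 52787288 to 136503809 per library, and every deposited gene exceeded 1 CPM in at least 3 libraries. Symbols, positions, and exon lengths came from GENCODE M21 (GRCm38) by gene identifier, which named 14350 of 14427 genes. Promoter sequences came from RefSeq on GRCm38.p6.

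Counts were fitted in R 4.3.3 with edgeR 4.0.16 (TMM, quasi-likelihood, 1 mean per line fitted to the 24 libraries together; the filter of more than 1 CPM in 2 or more libraries removed no gene). P-values were adjusted over all 14427 genes within each comparison (Benjamini-Hochberg) and called at 0.05, and every adjusted p comes from this test unless stated. The standard error was the log2 fold change divided by the square root of F. Neighbouring lines were taken from all 28 pairs of lines. Correlations used log2 CPM with a prior count of 2. The fit was tested on simulated data. The members and gene lists were chosen with earlier results of these data known. Named genes were all members and, from each other list, the 2 largest changes past the threshold provided each library of the higher line had 10 counts or more. Bmp6 was named in addition.

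Alternatives were limma 3.58.1 (voomWithQualityWeights), DESeq2 1.42.0, its size factors in edgeR, no filter, a stricter filter (10 counts and 5 CPM in 3 libraries), other thresholds, fits to the compared lines alone, a block for replicate number, and leaving out each replicate.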

Additional observations from a re-analysis of the deposited data

Results flagged for a closer look

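For 19 of the 27 tests of a gene and a mutation, the effect of the mutation against p53 KO differed between the male and the female culture in edgeR's quasi-likelihood test of that difference, given below as the male minus the female log2 fold change. Sex and culture cannot be told apart, and Trp53 levels also differed between the male and female lines of each mutant.

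For p53R172H the differences were -5.76 in Grem1 (adjusted p = 3.31e-19), -4.20 in Bmp4 (2.88e-16), -1.48 in Id2 (9.7e-09), -1.22 in Id4 (3.44e-07), -0.78 in Smad6 (3.92e-06), -0.65 in Id1 (0.00112), and -0.60 in Bmpr1a (6.28e-06). For p53Y202C they were 3.67 in Id4 (2.67e-16), -3.64 in Bmp4 (1.4e-15), -3.57 in Id2 (1.16e-15), -1.51 in Id3 (1.34e-11), -0.99 in Smad6 (7.14e-08), -0.58 in Bmpr2 (0.00415), -0.55 in Bmpr1a (1.35e-05), 0.45 in Id1 (0.0132), and -0.42 in Grem1 (0.00943). For p53Y217C they were 7.92 in Id4 (3.85e-21), 3.49 in Id2 (5.86e-15), and 2.40 in Id1 (6.31e-12).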

How the results depend on the processing

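Of the 117 values of the 9 genes over 13 comparisons, DESeq2 kept the direction and side of the threshold of 116, limma 116, DESeq2's size factors in edgeR 115, no filter 117, the stricter filter 113, and fits to the compared lines alone 112. The calls of male p53R172H were the least settled, with 8 genes called, 5 at an adjusted p of 0.01 or less, 4 at a log2 fold change above 0.5, and 5 to 6 with 1 replicate left out. A log2 fold change above 0.5 also left 5 of 9 genes in male p53Y217C and in female p53R172H. Over all genes it left 1861 calls in male p53R172H, 6531 in male p53Y202C, 5812 in male p53Y217C, 5603 in female p53R172H, 5435 in female p53Y202C, and 3657 in female p53Y217C, from 5872, 10529, 10176, 10060, 9891, and 8183. For male against female lines it left 1730 (p53 KO), 4387 (p53R172H), 7087 (p53Y202C), and 5476 (p53Y217C), from 4482, 8948, 10869, and 9810, and for the difference in effect 5218 (p53R172H) and 5054 (p53Y217C), from 8365 and 7913. In limma 7186 genes differed between the p53 KO lines, against 4482; the cause was not tested.

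Signs turned only in values that did not pass the threshold in the main test. These were Bmp4 in male p53Y202C (-0.018 with the stricter filter), Nog in female p53Y217C (0.16 in limma), Bmpr2 between the p53 KO lines (0.00152 with the stricter filter), and the p53R172H difference in effect on Id3 (-0.019 in DESeq2 and -0.0191 with its size factors, -0.043 with the stricter filter, -0.029 with the compared lines alone). With 1 replicate left out, the lowest and highest log2 fold changes were -0.075 and 0.086 for Bmp4 in male p53Y202C. In female p53R172H they were -0.018 and 0.90 for Gdf6, -0.20 and 0.25 for Gdf7, and -0.029 and 0.15 for Smad9. In female p53Y202C they were -0.011 and 0.084 for Bmpr1a, -0.098 and 0.18 for Bmpr2, -1.32 and 0.015 for Gdf6, and -0.12 and 0.13 for Acvrl1. They were -0.53 and 0.26 for Nog in female p53Y217C, -0.070 and 0.023 for Bmpr2 and -0.00750 and 0.10 for Id1 between the p53 KO lines, -0.047 and 0.080 for the p53R172H difference in Id3, and -0.039 and 0.061 for the p53Y217C difference in Smad6.

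Replicate numbers did not pair the libraries, since deviations of same-numbered libraries had a mean correlation of -0.018 over 84 pairs and in no comparison was every pair above 0.1. With the replicate number as a block, 7 genes were called in male p53R172H (Id3 at an adjusted p of 0.0592) and 8 in male p53Y217C (Smad6 at 0.0577), Bmpr2 in female p53Y202C was at -0.00623, and no other call of the 9 genes changed.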
